A study of Mus musculus with 7 samples.

Results

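Training on an object recognition task was compared with exposure to the empty arena in small RNA libraries from mouse hippocampus, with both genotypes of the study pooled. Libraries were assigned by their training label only, so that 7 of the 7 libraries of the series entered the comparison, 5 trained (libraries 3 to 7) against 2 non-trained (libraries 1 and 2). By the labels, library 1 was untrained wildtype, library 2 untrained NIPP1*, libraries 3 to 5 trained wildtype and libraries 6 and 7 trained NIPP1*. All mice were adult C57BL/6 animals of 3 to 5 months. NIPP1* is a fragment of a nuclear inhibitor of protein phosphatase 1, fused to a fluorescent protein and placed under a tetracycline-responsive promoter. Its expression was driven in forebrain neurons by a CaMKIIalpha-controlled transactivator and switched on with doxycycline in the diet, so that the transgene marks excitatory forebrain neurons and not the other cells of the dissected tissue. Wildtype mice were control littermates. Trained mice explored unfamiliar objects in several short sessions and were killed soon after the last one, whereas non-trained mice were handled and placed in the same arena without objects. Hippocampi of several mice were pooled by group, and how the mice were divided among libraries is not given in the sources used here, so p-values measure the spread between libraries, which may be partly technical.

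MicroRNAs are small RNAs cut from a hairpin in a primary transcript, first in the nucleus and then in the cytoplasm. One arm of the hairpin is usually loaded into an Argonaute protein, where bases 2 to 8 of the miRNA, the seed, pair with sites in messenger RNAs and lower their stability or translation. In neurons, some miRNAs are transcribed or degraded with synaptic activity, miR-132 and miR-212 downstream of CREB being the best known, whereas families such as let-7, miR-9 and miR-128 make up much of the stable pool.

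The mature sequences below belong to the miRNAs that the results turn on. They were read from the mouse mm9 genome at the deposited coordinates and are written 5′ to 3′ with the seed in capitals. The first group holds miRNAs with a higher mean in trained libraries, with miR-132 as the cluster partner of miR-212-3p.
miR-129-2-3p: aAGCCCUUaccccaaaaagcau
miR-129-1-3p: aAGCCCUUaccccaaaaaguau
let-7c: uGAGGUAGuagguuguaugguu
let-7b: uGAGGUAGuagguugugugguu
miR-212-3p: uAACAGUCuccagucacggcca
miR-132: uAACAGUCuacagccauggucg
The second group holds miRNAs with a lower mean in trained libraries.
miR-135a: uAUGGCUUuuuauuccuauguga
miR-135b: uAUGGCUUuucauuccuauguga
miR-21: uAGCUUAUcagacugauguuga
miR-146a: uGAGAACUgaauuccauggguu
miR-19b: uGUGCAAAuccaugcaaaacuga
miR-185: uGGAGAGAaaggcaguuccuga
The third group holds the polycistron that the study was about and a pair of miRNAs from introns of Htr2c, all of which spread widely over the libraries.
miR-183: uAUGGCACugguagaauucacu
miR-96: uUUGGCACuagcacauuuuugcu
miR-182: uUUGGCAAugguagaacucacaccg
miR-448-3p: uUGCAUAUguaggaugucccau
miR-1298: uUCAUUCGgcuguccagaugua
In mm9, miR-129-2-3p is at chr2:94081533-94081554 on the minus strand and miR-129-1-3p at chr6:28972667-28972688 on the plus strand. Both lie outside annotated host genes and share one seed, as do miR-212-3p (chr11:74986945-74986966) and miR-132 (chr11:74987225-74987246), which lie side by side in an intron of 1700016P03Rik. let-7b is at chr15:85537755-85537776, beside one of the 2 copies of let-7c (chr15:85537046-85537067 and chr16:77599917-77599938), and 9 tested miRNAs carry their seed. miR-135a has 2 copies (chr9:106056471-106056493 and chr10:91534886-91534908) and shares its seed with miR-135b, which lies in an intron of Lemd1 (chr1:134094680-134094702). miR-21 lies in an exon of Vmp1 as annotated (chr11:86397622-86397643, minus strand), miR-185 in an intron of D16H22S680E (chr16:18327531-18327552) and miR-146a outside annotated host genes (chr11:43187937-43187958). miR-19b comes from Mir17hg (chr14:115443580-115443602) and from a second copy (chrX:50095168-50095190). The mature sequences of miR-182, miR-96 and miR-183 lie within chr6:30115962-30119732 on the minus strand, and their 3 seeds differ from each other. The reads of miRNAs with 2 copies could not be divided between them, and their values belong to both loci together.

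Each library held between 7285302 and 10017346 miRNA reads, so that 1 read was worth 0.0998 to 0.137 RPM (the number of reads scaled to 1000000 miRNA reads). Of 756 distinct mature sequences, 476 had a mean of at least 10 reads and were tested. miR-9 was the most abundant miRNA in all 7 libraries. The 10 most abundant made up 62.2% to 64.3% of a library's miRNA reads. Libraries 4 and 5, both trained, stood apart from the rest. On the first principal component of 319 miRNAs with at least 100 reads, which held 41.7% of the variance, they were at -4.19 and -5.04, while the other 5 libraries were between 0.79 and 3.60. G and C made up 42.3% and 42.5% of the bases of miRNA reads in libraries 4 and 5 (weighted by level), 41.6% to 41.7% in the other trained libraries and 41.4% and 42.3% in libraries 1 and 2. The genotype of the trained libraries is uncertain. The authors' table of trained groups has a mean for trained NIPP1* that libraries 3, 4 and 5 rebuilt with an error of 0.0255% (root mean square over 302 miRNAs), although the labels call these libraries trained wildtype. The division into trained and non-trained does not depend on it.

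**Figure D1:**
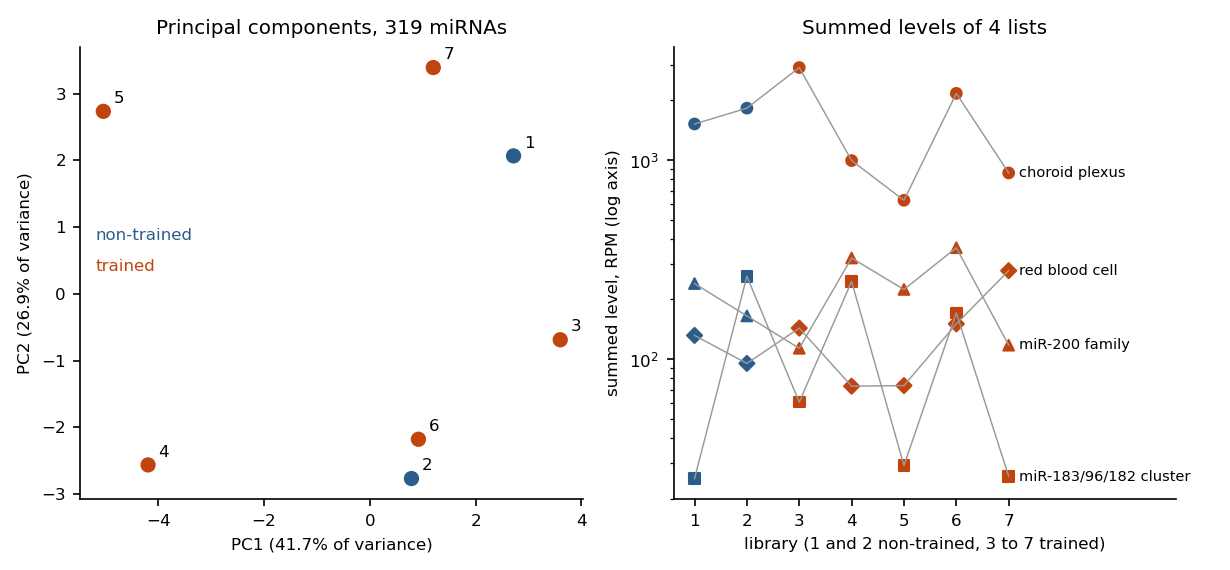
The left panel plots the 7 libraries on the first 2 principal components of log2 levels of 319 miRNAs (blue, non-trained; red, trained; numbers are libraries), and libraries 4 and 5 sit at -4.19 and -5.04 on the first component. The right panel plots the summed RPM of 4 lists in each library on a log axis (circles, choroid plexus markers; squares, miR-183/96/182; triangles, miR-200 family; diamonds, red blood cell markers), where the values of trained and non-trained libraries overlap for every list.

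The hippocampal miRNA profile of trained mice lay close to that of non-trained mice, and no miRNA passed the test. At an adjusted p under 0.05 (limma on log2(RPM + 0.5), Benjamini-Hochberg adjustment over 476 miRNAs), 0 of 476 miRNAs (0%) were called higher or lower, with a lowest adjusted p of 0.816. Without adjustment, 26 miRNAs (5.46%) had a p under 0.05, of which 10 (2.1%) had a higher mean in trained libraries and 16 (3.36%) a lower one. A threshold of 0.05 passes about such a share where no miRNA differs. edgeR's quasi-likelihood test on whole reads recovered from the values also called 0, with 19 at an unadjusted p under 0.05. DESeq2's Wald test on the same reads called 1, miR-129-2-3p, which was higher in trained libraries by 0.58 on the log2 scale (adjusted p = 0.0392). Without libraries 4 and 5, DESeq2 called 0, miR-129-2-3p then having an adjusted p of 0.0798 and 26 miRNAs an unadjusted p under 0.05.

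Log2 fold changes (trained against non-trained) were small. The middle 90% of miRNAs lay between -0.42 and 0.32, and 1 miRNA of 476 differed by at least 1 in size, miR-200c, at a mean of 2.97 RPM. For 427 miRNAs (89.7%) the 95% confidence interval lay within a log2 fold change of 1 on either side of 0, and for 160 (33.6%) within 0.5. The median width of the interval on either side of the estimate was 0.42. It was 0.53 for the 157 miRNAs with 10 to 100 reads, 0.42 for the 143 with 100 to 1000 and 0.31 for the 176 with more. These widths are not a limit of detection after adjustment. Neither smaller nor larger differences were called, with miR-135a for example at -0.68 (limma adjusted p = 0.816). With 5 libraries against 2 there are 21 ways to assign them, and an exact permutation test of a single miRNA (two-sided) cannot go below p = 0.0952.

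Differences between libraries of one training group spanned nearly the same range as differences between the groups. The median absolute log2 difference over 319 miRNAs was 0.150 between the non-trained libraries, from 0.138 to 0.283 in the 10 pairs of trained libraries and from 0.143 to 0.301 in the 10 pairs of a trained with a non-trained library. The direction that separates the training groups held 12.4% of the variance among libraries, where an even share of the 6 directions would be 16.7%.

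The order of libraries, which needs no model, gave few miRNAs that separated the groups. In 16 miRNAs (3.36%) every trained library was above both non-trained libraries, and in 39 (8.19%) every trained library was below both. Where labels carry no information, a miRNA has a probability of 0.0952 of falling in either of these orders. The balance of the 2 orders depended on the scaling. Fold changes were below 0 for 289 miRNAs (60.7%) and above 0 for 187 (39.3%), with a median of -0.06. With TMM scaling the median was 0.01, 32 miRNAs (6.72%) had every trained library above and 21 (4.41%) below. The sign of a fold change nearer to 0 than about 0.06 is therefore set by the scaling. In 12 miRNAs (2.52%) all 5 trained libraries lay between the 2 non-trained ones.

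**Figure D2:**
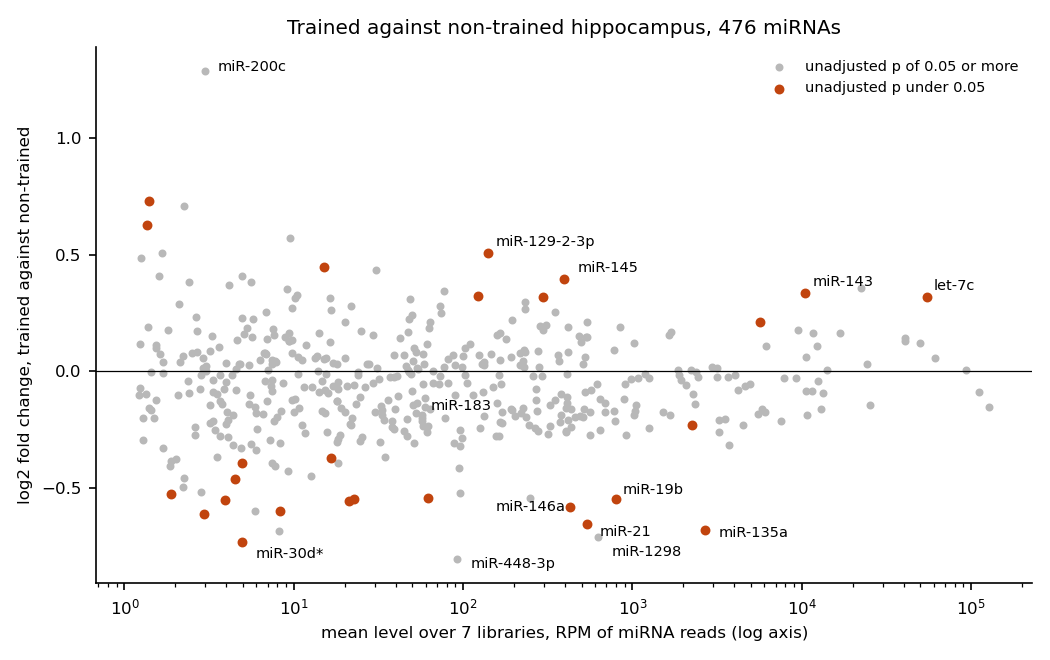
Each point is 1 of 476 miRNAs, with the mean level over 7 libraries in RPM on a log axis and the log2 fold change of trained against non-trained libraries on the vertical axis. Red points are the 26 miRNAs with a limma unadjusted p under 0.05, and none passed limma's adjusted threshold.

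Among the miRNAs with an unadjusted p under 0.05, the lowest p belonged to the 3′ arm of miR-129, a miRNA that is enriched in neurons. In the non-trained libraries 1 and 2 the level of miR-129-2-3p was 99.1 RPM and 117 RPM. It was at 156 RPM, 174 RPM, 143 RPM, 148 RPM and 147 RPM in trained libraries 3 to 7. All 5 trained libraries were above both non-trained ones, and the log2 fold change was 0.51 ± 0.13 (SE; limma unadjusted p = 0.00376, adjusted p = 0.816). miR-129-1-3p, which comes from another chromosome and differs from it near the 3′ end, was at 11.5 RPM and 12.4 RPM in the non-trained libraries and between 14.5 RPM and 18.1 RPM in the trained libraries. Its groups did not overlap either (log2 fold change 0.45 ± 0.15 SE; limma unadjusted p = 0.0168, adjusted p = 0.816). Without libraries 4 and 5 the fold changes of this pair were 0.48 and 0.46. The 5′ arm, miR-129-5p, whose reads come from both hairpins, was at 832 RPM and 1070.0 RPM in the non-trained libraries and between 863 RPM and 1273 RPM in the trained ones, so that the groups overlapped (0.12 ± 0.18 SE). A difference between the arms was not tested.

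let-7c and let-7b belong to the let-7 family, which is abundant in mature neurons and is known as a brake on growth programmes. let-7c was at 44775 RPM and 47650 RPM in libraries 1 and 2 and at 52360 RPM, 62100 RPM, 66190 RPM, 58020 RPM and 50430 RPM in libraries 3 to 7. Every trained library was above both non-trained libraries (log2 fold change 0.32 ± 0.11 SE; limma unadjusted p = 0.0215, adjusted p = 0.816), and libraries 4 and 5 were the highest. The fold change was 0.21 without these libraries. let-7b, next to a copy of let-7c on chromosome 15, was at 17020 RPM and 19760 RPM in non-trained libraries and between 18440 RPM and 31920 RPM in trained ones, with libraries 4 and 5 again the highest and library 7 below library 2 (0.36 ± 0.21 SE, 0.12 without libraries 4 and 5). Of 16 tested let-7 products, 13 had a fold change above 0, with a median of 0.10 against -0.06 over all 476 miRNAs, and 0.05 without libraries 4 and 5. With TMM scaling the medians were 0.16 for the family and 0.01 over all miRNAs. Of these 16, 1 (let-7c) had an unadjusted p under 0.05, beside 5.46% of all 476 miRNAs. The summed family did not overlap between the groups, but without let-7c it was at 143470 RPM and 130610 RPM in non-trained and 142820 RPM to 160400 RPM in trained libraries, with overlap. The lowest value of the family was let-7f-2*, the passenger strand of a let-7f hairpin, at -0.20.

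miR-143 and miR-145 are made from one primary transcript and are known from vascular smooth muscle. miR-143 was at 8707 RPM and 8817 RPM in the non-trained libraries and at 9116 RPM, 12220 RPM, 12880 RPM, 10190 RPM and 11310 RPM in libraries 3 to 7 (log2 fold change 0.34 ± 0.13 SE; limma unadjusted p = 0.0343, adjusted p = 0.816). miR-145 was at 301 RPM and 339 RPM in the non-trained libraries and between 361 RPM and 475 RPM in the trained ones (0.40 ± 0.13 SE; limma unadjusted p = 0.0143, adjusted p = 0.816). For both, the groups did not overlap, and library 3 was the lowest of the trained libraries. Their passenger strands, miR-143* and miR-145*, had fold changes of 0.16 and 0.17 with overlapping groups. miR-126, which marks endothelium, had overlapping groups on both arms, at -0.06 ± 0.10 (SE) for miR-126-3p and -0.12 ± 0.14 (SE) for miR-126-5p, and at 0.00118 and -0.06 with TMM scaling. The vascular list summed to 14890.0 RPM and 14865 RPM in non-trained libraries and to between 15553 RPM and 18540 RPM in trained ones. This rested on miR-143 and miR-145, without which the list was at 5882 RPM and 5708 RPM in non-trained and 5064 RPM to 6076 RPM in trained libraries, with overlap. Libraries 4 and 5 had the highest sums of the whole list, and without them the fold changes of miR-143 and miR-145 were 0.21 and 0.32 and the median of the list was 0.08 in place of 0.16. Whether vessel content has a part in the miR-143 and miR-145 values was not tested.

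miR-212-3p was at 92.5 RPM and 116 RPM in the non-trained libraries and at 139 RPM, 130.4 RPM, 118 RPM, 122 RPM and 140.1 RPM in trained libraries 3 to 7. All trained values were above both non-trained ones, although library 5 exceeded library 2 by a small margin (log2 fold change 0.32 ± 0.14 SE; limma unadjusted p = 0.0446, adjusted p = 0.816). Leaving out library 2 moved the value to 0.49 and leaving out library 1 to 0.16. miR-132, named here for its shared seed and transcript after its values were seen, was at 257 RPM and 298 RPM in non-trained and between 281 RPM and 367 RPM in trained libraries, with overlapping groups (0.20 ± 0.14 SE, 95% interval -0.12 to 0.52). The other strands of these hairpins were near 0, with 0.07 for miR-212-5p and -0.04 for miR-132*.

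miR-191, a widely expressed miRNA often used as a reference, was at 4782 RPM and 5360.0 RPM in non-trained libraries and within the narrow range of 5716 RPM to 6053 RPM in trained ones (log2 fold change 0.21 ± 0.09 SE, 0.13 without library 1; limma unadjusted p = 0.0377, adjusted p = 0.816). miR-139-5p, from an intron of the phosphodiesterase gene Pde2a, was at 235 RPM and 267 RPM in non-trained and between 263 RPM and 352 RPM in trained libraries, and library 3 was below library 2 (0.32 ± 0.14 SE; limma unadjusted p = 0.0447, adjusted p = 0.816). miR-203 was between 63.8 RPM and 99 RPM in trained libraries against 63.2 RPM and 64.9 RPM (0.34 ± 0.17 SE), and miR-455 between 20.5 RPM and 42.9 RPM against 23.6 RPM and 23.7 RPM (0.43 ± 0.28 SE). miR-26a, among the 10 most abundant miRNAs, had a fold change of 0.12 ± 0.07 (SE). miR-200c, with the largest fold change of all tested miRNAs at 1.29 ± 0.84 (SE), reached 11.3 RPM in library 4 and 4.94 RPM in library 6 but at 0.49 RPM to 1.66 RPM in the other trained libraries, against 0.45 RPM and 0.99 RPM in non-trained ones.

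**Figure D3:**
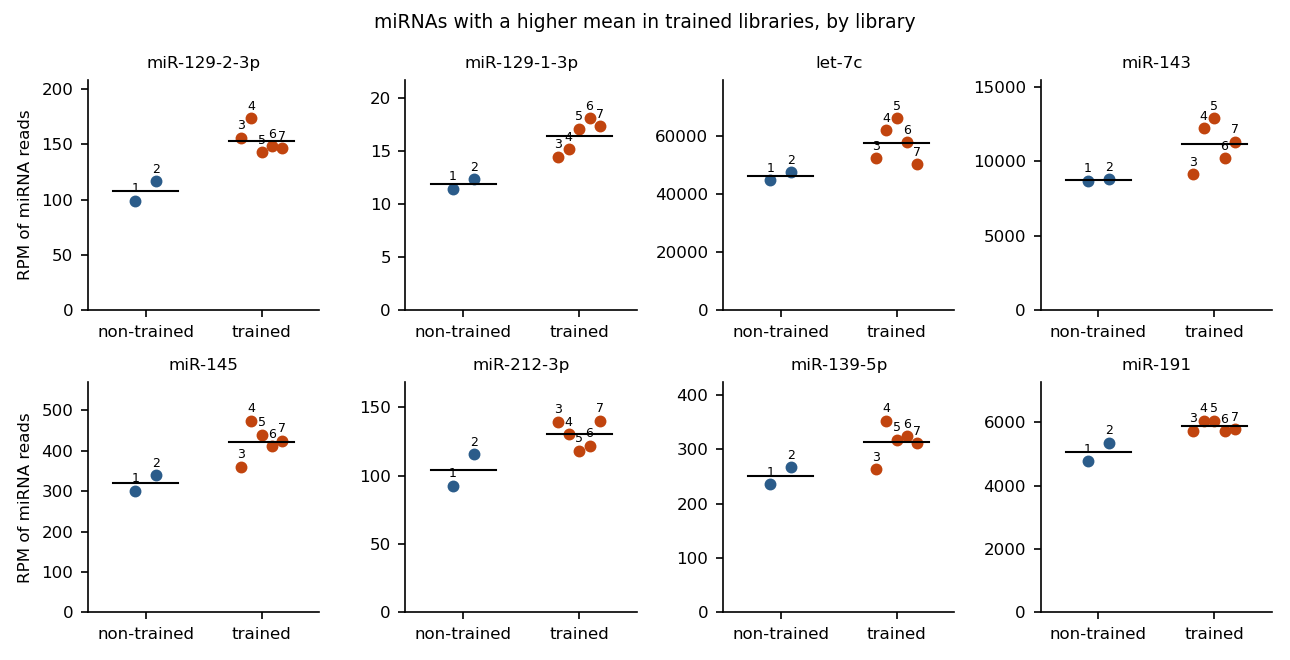
RPM of 8 miRNAs with a higher mean in trained libraries, with each library as a numbered point (blue, non-trained; red, trained), the group mean as a line and axes that start at 0. The groups do not overlap in 7 panels, and in the panel of miR-139-5p library 3 (263 RPM) is just below library 2 (267 RPM).

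Among the miRNAs with a lower mean and an unadjusted p under 0.05, miR-135a and miR-21 had the largest differences of those at 50 RPM or more. miR-135a, a brain-expressed miRNA known to target messages of serotonin signalling and of synaptic growth, reached 4840.0 RPM in library 1 but 2661 RPM in library 2. It was at 2797 RPM, 1937 RPM, 2575 RPM, 2029 RPM and 1994 RPM in libraries 3 to 7. Library 1 was far above all others, and library 3 was above library 2 (log2 fold change -0.68 ± 0.23 SE; limma unadjusted p = 0.0173, adjusted p = 0.816). Without library 1 the fold change was -0.25, and without library 2 it was -1.11. miR-135b, with the same seed, was also highest in library 1, at 419 RPM against 231 RPM in library 2 and 146 RPM to 276 RPM in trained libraries (-0.55 ± 0.28 SE). It was named after its values were seen. The passenger strand miR-135a-1*, at 0.79 RPM and 0.74 RPM against 1.2 RPM to 2.56 RPM, went the other way without overlap (0.73 ± 0.26 SE; limma unadjusted p = 0.0218, adjusted p = 0.816), on 6 to 20 reads per library.

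miR-21 and miR-146a are induced in inflammation and are abundant in microglia and astrocytes. miR-21 was at 821 RPM and 620 RPM in non-trained libraries and at 640 RPM, 348 RPM, 507 RPM, 376 RPM and 446 RPM in trained libraries 3 to 7, with library 3 above library 2 (log2 fold change -0.66 ± 0.23 SE; limma unadjusted p = 0.0198, adjusted p = 0.816). miR-146a was at 438 RPM and 698 RPM in non-trained libraries and at 484 RPM, 346 RPM, 404 RPM, 286 RPM and 357 RPM in trained ones, again with library 3 inside the non-trained range (-0.58 ± 0.23 SE; limma unadjusted p = 0.0308, adjusted p = 0.816). Without library 2 the value of miR-146a was -0.25, and without library 1 it was -0.92. The value of miR-21 was -0.45 without library 1 (limma unadjusted p = 0.177) and -0.86 without library 2. Without library 3 it was -0.78, with an adjusted p of 0.445. The other 6 tested products of the microglia and leukocyte list, which include the myeloid miRNAs miR-142 and miR-223, lay between -0.21 and 0.25, and the summed list was at 2124 RPM and 2279 RPM in non-trained and 1540.2 RPM to 2023 RPM in trained libraries. The sums did not overlap, although with TMM scaling library 3 was above library 1. The separation also rested on miR-21 and miR-146a. Without this pair the list summed to 865 RPM and 962 RPM in non-trained and 878 RPM to 1001 RPM in trained libraries, with overlap. The part of cell content in the values of miR-21 and miR-146a was not tested.

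miR-19b and miR-19a, from the growth-related miR-17-92 polycistron, were low in the same trained libraries. miR-19b was at 1052 RPM and 978 RPM in non-trained libraries and at 998 RPM, 540.1 RPM, 566 RPM, 677 RPM and 782 RPM in libraries 3 to 7 (log2 fold change -0.55 ± 0.22 SE; limma unadjusted p = 0.0368, adjusted p = 0.816), and at -0.33 without libraries 4 and 5. miR-19a had a fold change of -0.52 ± 0.26 (SE), and -0.23 without these libraries. Other named products of the polycistron were on both sides of 0, with miR-20a at 0.08, miR-92a at 0.07, miR-17* at -0.18 and miR-92a-1* at -0.30. An unnamed product of the Mir18 hairpin, at 2.3 RPM or less, went the other way from miR-19b. Every trained library was above both non-trained ones for it (limma unadjusted p under 0.05). In the miR-17-92 and miR-106b-25 clusters together, 8 of 10 tested named products were below 0, with a median of -0.16 (-0.12 without libraries 4 and 5). The named products of both clusters summed to 2194 RPM and 2083 RPM in non-trained libraries. In trained libraries the sums were 1465 RPM to 2039 RPM, without overlap, but with TMM scaling library 3 was above library 2. Without miR-19b the sums were 1143 RPM and 1105 RPM against 925 RPM to 1078 RPM, with the 2 lowest sums in libraries 4 and 5. The sums without miR-19b did not overlap either, but with DESeq2 size factors library 6 was above library 2.

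Some lower miRNAs had small but even differences. miR-185 was at 2580.0 RPM and 2456 RPM in non-trained libraries and between 2077 RPM and 2242 RPM in trained ones, without overlap (log2 fold change -0.23 ± 0.09 SE; limma unadjusted p = 0.0276, adjusted p = 0.816). miR-434-5p, of the imprinted region on chromosome 12, was at 1414 RPM and 1398 RPM against 1063 RPM to 1301 RPM (-0.24 ± 0.11 SE). miR-3475 was at 187 RPM and 184 RPM against 139 RPM to 175 RPM (-0.28 ± 0.12 SE), and miR-345-3p at 57.4 RPM and 62.2 RPM against 41.2 RPM to 51.5 RPM (-0.31 ± 0.14 SE). The groups did not overlap for any of these 3. With TMM scaling miR-185 was at -0.17 (limma unadjusted p = 0.0707), miR-434-5p at -0.18, miR-3475 at -0.21 and miR-345-3p at -0.25. miR-300*, also of chromosome 12, was at 87.3 RPM and 70.5 RPM against 41.0 RPM to 71.3 RPM (-0.54 ± 0.22 SE; limma unadjusted p = 0.0349, adjusted p = 0.816). The passenger strands miR-30d* (-0.73 ± 0.20 SE, at a mean of 4.94 RPM) and miR-218-2* (-0.60 ± 0.24 SE, at 8.32 RPM) had no overlap, while their main strands were at -0.03 for miR-30d and -0.23 for miR-218.

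A group of hairpins in introns of the chloride transporter gene Clcn5 on the X chromosome lay mostly below 0. In the cluster with mature sequences from chrX:6814821 to chrX:6825603, which holds miR-500, miR-501, miR-362, miR-188 and miR-532, 7 of 9 tested products had fold changes below 0, with a median of -0.18. miR-362-5p, named after its values were seen, was at 32.5 RPM and 26.1 RPM in non-trained libraries and between 17.4 RPM and 24.0 RPM in trained ones without overlap (-0.55 ± 0.17 SE; limma unadjusted p = 0.0121, adjusted p = 0.816). miR-500 was at 93.4 RPM and 111 RPM against 69.8 RPM to 94.0 RPM, with library 3 above library 1 (-0.31 ± 0.15 SE).

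**Figure D4:**
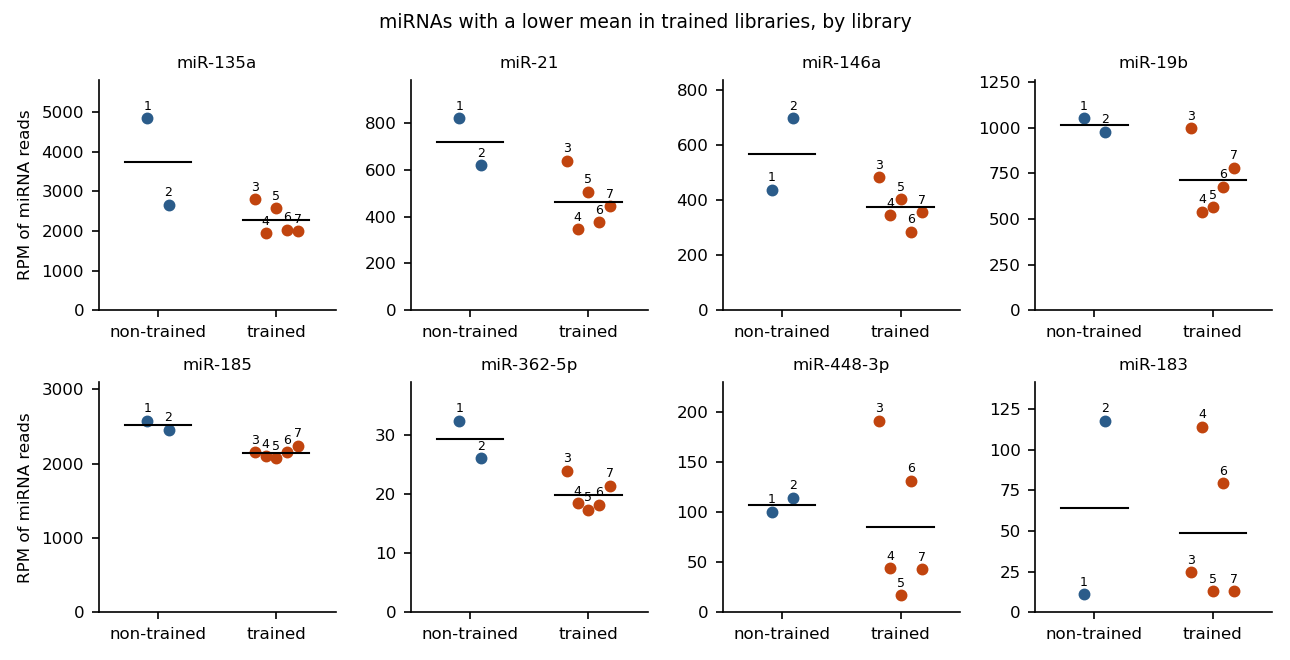
RPM of 8 miRNAs with a lower mean in trained libraries, drawn with numbered libraries (blue, non-trained; red, trained), group means as lines and axes that start at 0. miR-185 and miR-362-5p have no overlap between groups, whereas miR-448-3p spans 17.5 RPM to 192 RPM within the trained group and miR-183 spans 11 RPM to 118 RPM within the non-trained pair.

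Training did not separate the libraries by miR-183, miR-96 and miR-182, the polycistron that the study follows after training and after inhibition of protein phosphatase 1. The non-trained libraries differed widely in miR-183, with 11 RPM in library 1 and 118 RPM in library 2. In trained libraries 3 to 7 it was at 24.9 RPM, 114 RPM, 13.1 RPM, 79.6 RPM and 13.0 RPM, so that all trained libraries lay between the 2 non-trained ones. miR-182 had nearly the same order, at 12.9 RPM and 133 RPM in the non-trained libraries and at 33.4 RPM, 118 RPM, 15.2 RPM, 82.0 RPM and 11.2 RPM in the trained ones. miR-96 was at 1.24 RPM and 7.56 RPM and then at 2.44 RPM, 11.3 RPM, 1.02 RPM, 7.14 RPM and 1.4 RPM. The 3 miRNAs were high together in libraries 2, 4 and 6 and low in libraries 1, 3, 5 and 7.

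Log2 fold changes of the polycistron were -0.14 ± 1.05 (SE, 95% interval -2.52 to 2.25) for miR-183, -0.23 ± 1.05 (SE, -2.62 to 2.15) for miR-182 and 0.01 ± 0.85 (SE, -1.92 to 1.94) for miR-96. The intervals span a change of more than 3-fold in either direction, so that a moderate change was not detectable. Leaving out library 1 gave -1.82 for miR-183 and leaving out library 2 gave 1.54, which are opposite directions. The summed level of the 3 miRNAs and their passenger strands was 25.2 RPM and 260.1 RPM in the non-trained libraries and 60.9 RPM, 245 RPM, 29.3 RPM, 170.3 RPM and 25.9 RPM in the trained ones.

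The lists of families, clusters and markers were read by the number of members above or below 0 and by their median, beside -0.06 for all 476 miRNAs. No list member passed the adjusted threshold with limma or edgeR, and miR-129-2-3p, of the neuron-enriched list, passed it with DESeq2's Wald test.

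Of the miRNAs known from neuronal activity, plasticity and memory, 13 of 32 tested products were above 0 and 19 below, with a median of -0.02 that was 0.05 with TMM scaling. miR-212-3p was the highest at 0.32 and miR-92a-1* the lowest at -0.30. miR-134, known from dendritic spines, was at -0.16, miR-138 at -0.18 and miR-137 at -0.19. miR-34c was at 1111 RPM and 969 RPM in non-trained libraries and between 518 RPM and 1648 RPM in trained ones (-0.17 ± 0.45 SE), and at 0.31 without libraries 4 and 5. Neuron-enriched miRNAs were 9 above and 10 below 0 with a median of -0.01, which was 0.05 with TMM scaling. Within them, miR-124 was at -0.02 ± 0.14 (SE) and miR-128 at 0.06 ± 0.11 (SE), while the 3′ arms of miR-129 were the highest values of the list.

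The most abundant miRNAs had narrow intervals. miR-9 was at 149800 RPM and 126600 RPM in non-trained libraries and 107500 RPM to 141300 RPM in trained ones (log2 fold change -0.15, 95% interval -0.42 to 0.11). Its value was -0.03 without library 1, -0.27 without library 2 and -0.05 without libraries 4 and 5. For miR-29a the interval was -0.25 to 0.08, for miR-125b-5p -0.30 to 0.31, for miR-128 -0.19 to 0.31, for let-7c 0.06 to 0.57 and for miR-26a -0.05 to 0.29. A change of 1.5-fold in either direction lies outside each of these intervals.

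Members of a family did not all lie on one side of 0. In the miR-30 family 10 of 11 products were below 0, at a median of -0.05 that became 0.01 with TMM scaling. The miR-29 family had 3 products above and 4 below 0. In the miR-181 family 6 of 7 products were below 0, with a median of -0.19, but miR-181a, its most abundant member, was at 0.16. The family of miR-34 and its relatives was below 0 in 5 of 6 products (median -0.13) and had a median of 0.25 without libraries 4 and 5. In the miR-200 family, 5 of 6 were above 0 (median 0.11), and the median was -0.14 without libraries 4 and 5. The miR-99/100 and miR-125 families had a median of -0.05, or 0.01 with TMM scaling.

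The imprinted clusters of chromosome 12 hold the largest groups of co-transcribed miRNAs in brain. Of the miR-379 to miR-410 cluster, 22 of 52 tested products were above 0 and 30 below, at a median of -0.06, the same as over all 476 miRNAs. In this cluster 3 products had an unadjusted p under 0.05, all lower, beside 3.36% of all miRNAs with such a p and a lower mean. The neighbouring group of miR-127 and miR-136, which lies antisense to Rtl1, had 12 of 17 products below 0. Its median was -0.16, or -0.10 with TMM scaling. Its members ranged from -0.37 for miR-337-3p to 0.19 for miR-370. Of the miR-344 family, 5 of 6 were below 0, at a median of -0.15 that was -0.02 without libraries 4 and 5 and -0.08 with TMM scaling.

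Where both strands of a hairpin were tested, the strands were only weakly alike in their fold changes. Over 139 hairpins with a single locus, 80 (57.6%) had the same sign on both strands. Across these hairpins the correlation of the strands was 0.24 (Pearson) and 0.18 (Spearman), as a description, since both strands share their libraries. For the 80 hairpins whose minor strand was at 10 RPM or more, 55 had the same sign (r = 0.36, rho = 0.28). The fold change was also weakly related to the GC content of the mature sequence (rho = 0.16 over 476 miRNAs) and not to its level (rho = -0.01).

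**Figure D5:**
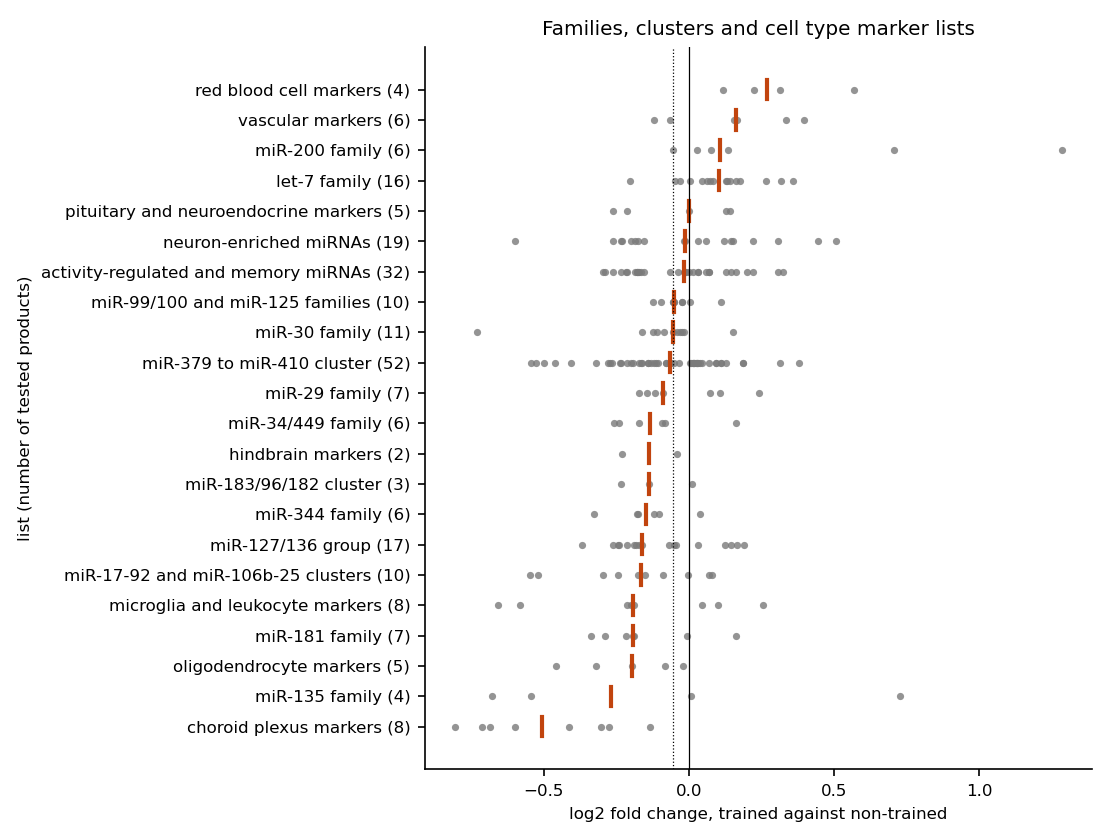
Each grey point is the log2 fold change of 1 tested product, trained against non-trained, in 22 lists with the number of products in brackets, and red bars are list medians. The solid line is 0, the dotted line is the median of all 476 miRNAs (-0.06), and medians run from -0.51 for choroid plexus markers to 0.27 for red blood cell markers.

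Markers of other cells that the dissected tissue can hold were also read from the libraries. In bulk tissue, fewer cells of a type and less of its RNA per cell cannot be told apart. The neuronal miRNAs miR-9, miR-128, miR-124 and miR-138 which the brain label leads one to look for, were each at 3637 RPM or more in all libraries.

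Choroid plexus miRNAs had the lowest median of any list, -0.51, with 8 of 8 tested products below 0 and none at an unadjusted p under 0.05. miR-448-3p and miR-1298 come from introns of Htr2c, the serotonin receptor gene expressed in choroid plexus. miR-448-3p was at 101 RPM and 115 RPM in the non-trained libraries and at 192 RPM, 44.1 RPM, 17.5 RPM, 132 RPM and 43.5 RPM in trained libraries 3 to 7 (-0.81 ± 0.78 SE). miR-1298 was at 647 RPM and 736 RPM and then at 1348 RPM, 336 RPM, 135.7 RPM, 964 RPM and 223 RPM (-0.71 ± 0.79 SE). Libraries 3 and 6 were above and libraries 4, 5 and 7 below both non-trained libraries. Without libraries 4 and 5 both fold changes were -0.06, and so was the median of the list. On recovered reads the fold changes of miR-448-3p and miR-1298 were also nearer to 0, at -0.27 and -0.14 with edgeR and with DESeq2. miR-204, from an intron of Trpm3, was between 400.1 RPM and 1154 RPM in trained libraries against 591 RPM and 796 RPM (-0.13 ± 0.38 SE).

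Oligodendrocyte miRNAs were below 0 in 5 of 5 products (median -0.20). miR-338-3p was at 4788 RPM and 3834 RPM against 2757 RPM to 4348 RPM, with overlap (-0.32 ± 0.19 SE). The value was -0.16 without library 1, -0.48 without library 2 and -0.14 without libraries 4 and 5. Red blood cell miRNAs were above 0 in 4 of 4 products (median 0.27, or 0.82 without libraries 4 and 5), and miR-451 ranged from 57.2 RPM to 229 RPM in trained libraries against 107 RPM and 81.3 RPM (0.12 ± 0.49 SE). Library 7 held the highest value. miR-7a and miR-7b, which are abundant in neuroendocrine tissue, were at -0.21 and -0.26, with their highest values in library 1. Without library 1 these were at 0.05 and -0.03, and without library 2 at -0.48 and -0.49. Of the hindbrain list, miR-10a and miR-10b were at 9.1 RPM to 26.1 RPM in all libraries (-0.23 and -0.04), and miR-196a was not among the named sequences.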

How the data were processed

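Small RNA of mouse hippocampus was sequenced in 7 libraries. The authors deposited, per library, each miRNA locus (mm9) with its percent of miRNA reads, from inserts of 19 to 26 bases. The submitters' processing notes name CASAVA 1.7.0, Bowtie and bedtools. The authors' table of non-trained libraries holds a normalised signal (reads divided by a size factor), which served only to name miRNAs. Further authors' tables hold fold changes and p-values and were not used, including 2 per-library columns. The authors' mean columns of trained groups served only to check which libraries they hold.

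Copies of one mature sequence were joined by their mean (806 loci, 756 sequences, 684 of them named, the unnamed at 2.3 RPM or less) and percents were rescaled to RPM. Low values were whole multiples of 1 read (within 0.1 read for over 99% of values up to 100 reads), which gave each library's total and whole reads. These totals cover counting error only. Positions came from the NCBIM37 (mm9) genome and GENCODE vM1, with strands from RefSeq matures and hairpins. miRNAs averaging 10 reads or more were tested with limma 3.58.1 with a trend (R 4.3.3) on log2(RPM + 0.5), trained against non-trained, without a genotype term, with Benjamini-Hochberg adjustment and a threshold of 0.05. Fold changes on this scale understate those of low miRNAs. edgeR 4.0.16 and DESeq2 1.42.0 on recovered reads, TMM and DESeq2 scaling, other pseudocounts and filters, a genotype term and leaving out libraries were alternatives. Leaving out libraries 4 and 5 was chosen after the data were seen. The scripts were tested on simulated data. Joining and figures used Python 3 with pandas and matplotlib.

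Named miRNAs were those past the adjusted threshold, the 10 highest and 10 lowest moderated t at 50 RPM or more, the 5 largest fold changes each way at 10 RPM or more, the miR-183/96/182 polycistron, the 5 most abundant miRNAs, and of each list its most abundant, highest and lowest product. Others are said to be named after their values were seen, or are given only as members of a list. The members and lists were chosen with earlier results of these data known. A study method, the Wilcoxon test, was not used, because 5 libraries against 2 cannot pass an adjusted threshold with it.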

Additional observations from a re-analysis of the deposited data

Results flagged for a closer look

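All 5 trained libraries lay between the 2 non-trained libraries for miR-183. The non-trained libraries were far apart: library 2 (untrained NIPP1*) was 3.36 higher than library 1 (untrained wildtype) on the log2 scale. Trained wildtype libraries were therefore above library 1 and trained NIPP1* libraries below library 2, which any other division of the trained libraries between the genotypes would also give. The order does not measure a response to training in either genotype, which was not tested. The difference between genotypes was not tested, and it rests on 1 non-trained library each.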

How the results depend on the processing

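Of 19 alternatives, 18 called 0 miRNAs in either direction, including the 7 that leave out 1 library, under which the lowest adjusted p ran from 0.445 to 0.997. The exception was DESeq2's Wald test, with 1 miRNA called higher, miR-129-2-3p, at 0.58 and an adjusted p of 0.0392. All 26 miRNAs with an unadjusted p under 0.05 kept their sign with TMM scaling, with each library left out and without libraries 4 and 5. They were picked by p in the same data, at fold changes of at least 0.21 in size, so kept signs are no independent support. Of these 26, 15 still had an unadjusted p under 0.05 without libraries 4 and 5, 14 to 19 with 1 trained library left out, 11 without library 2 and 4 without library 1, and 0 had one in all 7 cases of a library left out. Leaving out library 1 or 2 moved 5 of the 26 fold changes by over 1.5 times, those of miR-135a, miR-146a, miR-212-3p, miR-191 and miR-3087 (-0.55, and -0.34 without library 2). Every trained library was above both non-trained libraries in 16 miRNAs, and in 32 with TMM, 29 with DESeq2 size factors, 10 with at least 100 reads, 36 without libraries 4 and 5, and 17 to 57 with 1 library left out, the highest without library 2. Every trained library was below both in 39 miRNAs, and in 21, 23, 25, 61 and 43 to 114 under the same alternatives. Fewer libraries to order, or fewer miRNAs tested, move these counts by construction. The scalings shifted fold changes as a whole, from a median of -0.06 to 0.01 with TMM and 0.02 with DESeq2 size factors. Such a shift also moves these counts by construction.

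Signs turned for values near 0 or spread over libraries. With edgeR, miR-34b-5p was at 0.00274, miR-30a at 0.026, miR-34c at 0.052, miR-204 at 0.033, miR-338-5p at 0.053, miR-10b at 0.10 and miR-200b at 0.15. With DESeq2's Wald test these were at 0.0089, 0.034, 0.060, 0.038, 0.061, 0.12 and 0.16. With TMM, miR-30a was at 0.024, miR-338-5p at 0.043, miR-10b at 0.022 and miR-200b at 0.0084, and with DESeq2 size factors these were at 0.031, 0.050, 0.029 and 0.016. With genotype by the authors' table, miR-96 was at -0.053 and miR-125b-5p at -0.022. Without libraries 4 and 5, miR-34b-5p was at 0.25, miR-30a at 0.033, miR-34c at 0.31, miR-204 at 0.19, miR-96 at -0.10, miR-125b-5p at -0.11, miR-200a at -0.18, miR-541 at -0.012, miR-128 at -0.017, miR-125a-5p at -0.092, miR-29b-1* at -0.099 and miR-181a at -0.0077. The cause was not tested. With 1 library left out, values that turned ran from -0.48 to 0.055 for miR-7a, -0.83 to 0.24 for miR-92a-1*, -0.38 to 0.035 for miR-34c, -0.36 to 0.080 for miR-204, -1.89 to 1.42 for miR-182, -1.82 to 1.54 for miR-183, -0.10 to 0.039 for miR-338-5p, -0.21 to 0.11 for miR-10b, -0.31 to 0.20 for miR-200b, -1.10 to 1.12 for miR-96, -0.18 to 0.19 for miR-125b-5p, -0.27 to 0.33 for miR-200a, -0.57 to 0.65 for miR-344d-3*, -0.027 to 0.059 for miR-541, -0.18 to 0.32 for miR-451, -0.0038 to 0.15 for miR-20a, -0.083 to 0.41 for miR-34c*, -0.084 to 0.20 for miR-128, -0.078 to 0.30 for miR-125a-5p, -0.13 to 0.43 for miR-30b*, -0.024 to 0.31 for miR-7a-1*, -0.069 to 0.40 for miR-136 and -0.042 to 1.18 for miR-144. Where the library left out was non-trained, the remaining one was assumed to vary like the trained libraries. No paired analysis was possible because the groups share no replicate numbers that mark a common origin.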

Other observations

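miRNA hairpins that lie close together are often cut from one primary transcript. Among clusters of hairpins within 10 kb of each other with at least 3 tested products, the highest median was that of let-7c and let-7b on chromosome 15, at 0.32 with 3 of 3 products above 0, followed by miR-144 and miR-451 on chromosome 11 at 0.31, miR-193b and miR-365 on chromosome 16 at 0.26 and miR-143 with miR-145 at 0.25. The lowest medians were those of miR-296 with miR-298 on chromosome 2 at -0.24 and miR-181c with miR-181d on chromosome 8 at -0.22, each with 3 of 3 products below 0. The median of all tested miRNAs was -0.06, and these clusters were picked as the extremes, so no test is given for them.

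In some hairpins, picked after their values were seen, the strands had fold changes of opposite sign. For the hairpin of miR-151, miR-151-3p was at 0.19 and miR-151-5p at -0.45. For that of miR-532, the strands were at -0.19 and 0.33, and for that of miR-671 at -0.25 and 0.41. A difference between strands was not tested.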
